A study of Mus musculus with 21 samples.

Results

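Integrins and laminins are the cell-surface receptors and the extracellular proteins through which embryonic heart cells hold on to their matrix. The genes were taken by symbol from the deposited expression tables: every row named as an integrin alpha chain, an integrin beta chain or a laminin chain. This gave 37 genes of 24509, made up of 18 integrin alpha, 8 integrin beta and 11 laminin genes. RNA was sequenced from cardiac tissue of CD1 mouse embryos in 4 groups. Null hearts carried recombined alleles of Chd4, Chd4(Δflox/Δflox), and were taken at embryonic day (E) 9.5 (5 libraries) and E10.5 (3 libraries). Flox hearts carried the unrecombined Chd4(flox/flox) alleles and were taken at the same days (5 and 3 libraries). Chromatin bound by CHD4 was also sequenced, from hearts of wild-type E10.0 embryos, in 3 libraries that come from 2 biological replicates and are counted as technical replicates in the design text. No source used here names the recombinase that deleted Chd4, and the tissue is whole heart, so every level is a sum over its cell types.

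An integrin is a pair of chains, one alpha and one beta, and the pair sets the ligand. The alpha chains of Itga3, Itga6 and Itga7 receive laminin, those of Itga5 and Itgav receive fibronectin and other matrix proteins, and those that pair with Itgb2 or Itgb7 are best known from blood cells. A laminin is a trimer of an alpha, a beta and a gamma chain, and it forms the sheet of the basement membrane under endocardium, epicardium and around heart muscle cells. CHD4 is the remodelling ATPase of the NuRD complex, which works on nucleosomes and histone deacetylation.

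Chd4 itself had 48.8, 46.9, 45.4, 40.7 and 46.9 RPKM (reads per kilobase of gene and 1000000 reads) in null hearts at E9.5, against 91.4, 92.3, 94.6, 91.2 and 92.7 RPKM in flox hearts. At E10.5 it had 48.2, 57.4 and 52.5 RPKM in null hearts, against 67.2, 74.6 and 91.1 RPKM in flox hearts. No null library overlapped a flox library at either stage, and the fitted fold was 0.497 at E9.5 (95% interval 0.459 to 0.538). At E10.5 the fold was 0.685 (0.531 to 0.883), and limma's adjusted p was 0.116. Libraries held 17.1 to 20.1 M reads in null and 19.6 to 23.5 M in flox at E9.5, and 18 to 18.9 M in null and 17.3 to 18 M in flox at E10.5. Heart muscle markers were abundant throughout, with a summed level of 11036 to 14123 RPKM in null and 13863 to 16653 RPKM in flox at E9.5. The epicardial markers were low in null 1, flox 1 and flox 3 at E9.5, and the foregut and liver markers were high in null 2, null 3 and flox 2 at E10.5. Erythroid markers were higher in null hearts at E9.5, where 9 of 10 passed the test.

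Differences were fitted with limma on log2(RPKM + 0.5), so fold changes of genes near 0.5 RPKM are understated. A gene was tested where its mean over the libraries of the stage was at least 0.5 RPKM, and called where its p, adjusted over all genes by Benjamini-Hochberg, was under 0.05. Of the 37 members, 28 were tested at E9.5 and 27 at E10.5. At E9.5, 4 members rose in null hearts (Itga6, Itgb2, Itgae and Itgb7), none fell and 24 did not pass. Over all tested genes 17.2% were called at that stage, 6.87% higher and 10.3% lower in null, beside 4 of 28, or 14.3%, of the members. Itgae and Itgb7 reached the level for testing only through the null libraries. At a mean of at least 1 RPKM, 2 of 22 members were called, Itga6 and Itgb2, or 9.09%, beside 17.5% of all genes tested there. Itgb2, at 2.24 RPKM in null and 0.629 RPKM in flox, reached that stricter level only through the null libraries. With the libraries rescaled to a common median, 1134 genes were called higher and 1027 lower, against 937 and 1405 as deposited. The median change of the tested members was 0.11 on the log2 scale, beside -0.04 over all tested genes. At E10.5, 1 of 27 tested members rose (Itgb2) and none fell, against 2.07% of all tested genes called, 1.77% higher and 0.305% lower in null. The median change of the members was then 0.31, beside -0.03 over all tested genes. An unadjusted p under 0.05 was reached by 6 members at E9.5 and by 7 at E10.5, against 32.4% and 22.9% of all tested genes at the same stages.

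**Figure D1:**
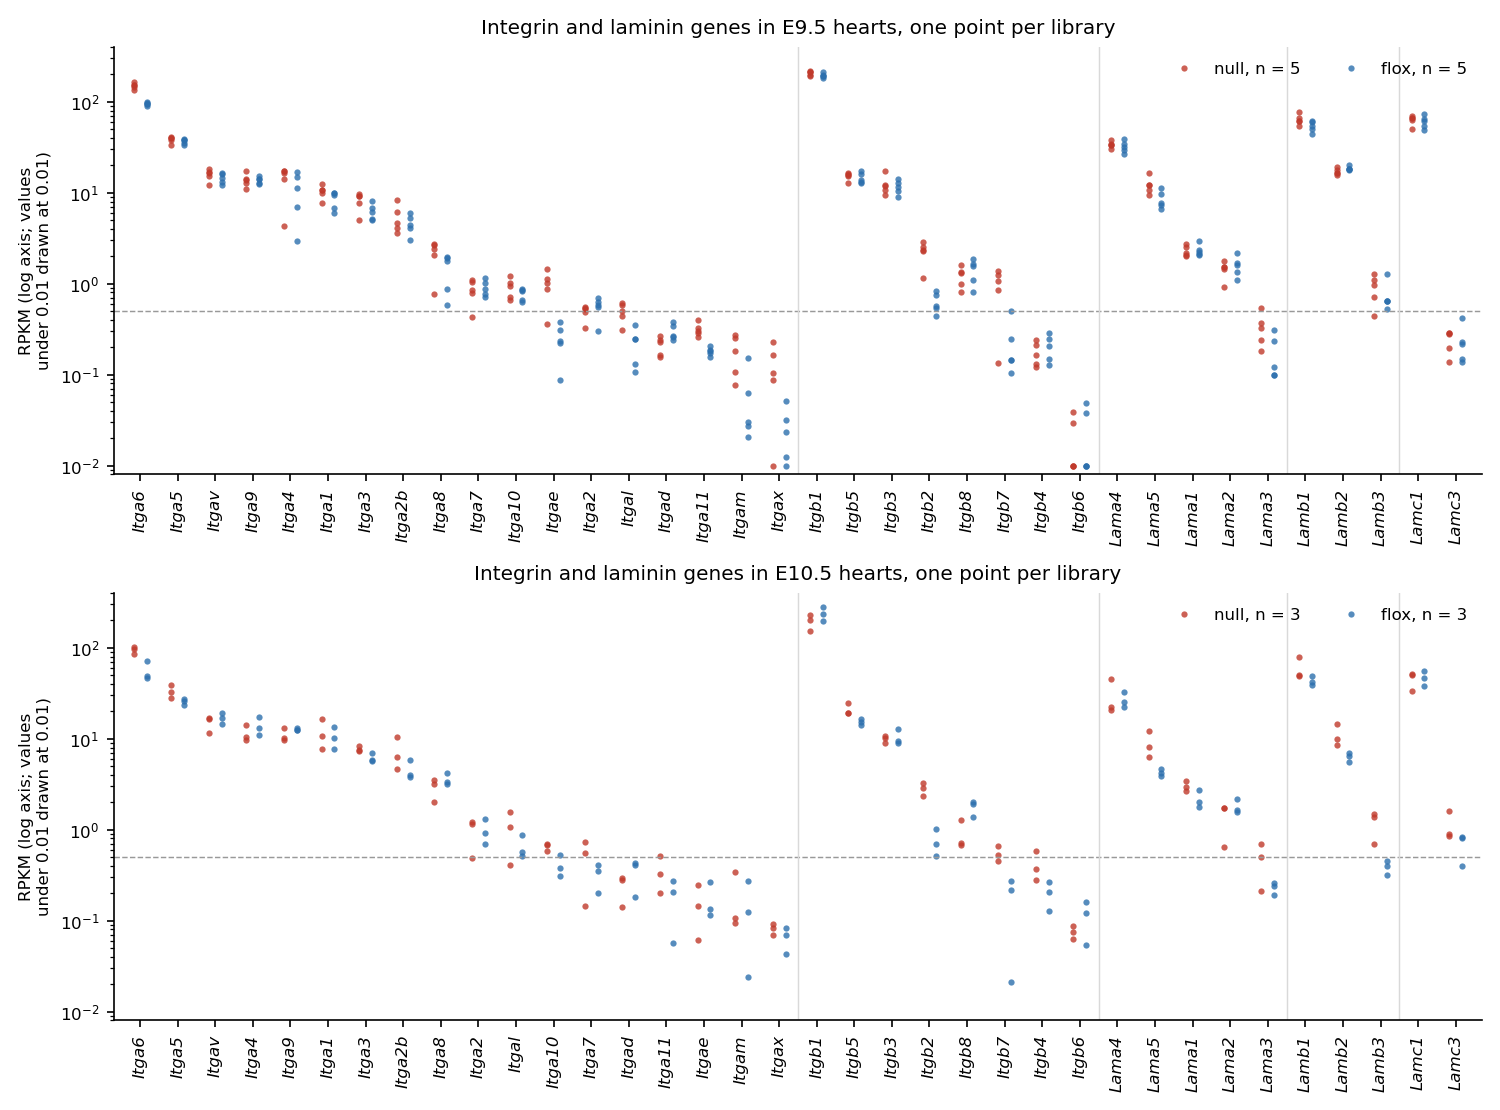
RPKM of the members, 1 left out, in each library at E9.5 (upper) and E10.5 (lower), on a log axis, null left of flox for each gene. The dashed line marks 0.5 RPKM. Itgb1, Itga6, Lamc1 and Lamb1 stand highest, and the leukocyte alpha chains lie near or under the line.

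Itga6 was the most abundant integrin alpha gene in every group, and it rose in null hearts at E9.5. It lies at chr2:71786886-71858427 (GRCm38.p6). At E9.5 it had 165, 136, 154, 145 and 151 RPKM in null hearts, against 94, 90.5, 96.2, 94.2 and 99.6 RPKM in flox hearts. Every null library stood above every flox library, with at least 11330 reads in each. The mean was 150 ± 10.6 RPKM in null and 94.9 ± 3.34 RPKM in flox (SD, n = 5 each), a fold of 1.58 (95% interval 1.45 to 1.72; limma adjusted p = 6.33e-05). With the erythroid level as a covariate the change was 0.72 on the log2 scale (adjusted p = 0.0093), when only 92 genes of the whole table were called.

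At E10.5 Itga6 had 97.7, 101 and 85.3 RPKM in null hearts, against 72, 49.1 and 46.6 RPKM in flox hearts. The groups again did not overlap, and the fold was 1.71 (1.27 to 2.32), but the adjusted p was 0.0805. The changes at E10.5 and E9.5 differed by 0.12 on the log2 scale (95% interval -0.23 to 0.47; adjusted p = 0.672). The authors' deposited table lists Itga6 at both stages, and the log2 ratio of flox over null there is -0.69 (E9.5) and -0.72 (E10.5).

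The other laminin-receiving alpha chains did not pass the test. Itga3, which pairs with Itgb1, averaged 8.2 ± 1.96 RPKM in null and 6.22 ± 1.27 RPKM in flox at E9.5, and 7.72 ± 0.477 RPKM in null and 6.12 ± 0.662 RPKM in flox at E10.5. Itga7, the laminin-receiving chain of mature muscle, averaged 0.842 ± 0.263 RPKM in null and 0.907 ± 0.18 RPKM in flox at E9.5. Within a library the log2 ratio of Itga6 over Itga7 was 6.83 ± 0.33 in null and 6.09 ± 0.17 in flox at E9.5. No null library overlapped a flox library in that ratio (exact permutation test, two-sided, p = 0.00794, the smallest 5 against 5 libraries can give, and 0.0357 adjusted over 9 pairs). Leaving out 1 library cannot make separate groups overlap, so only the size of the difference was checked, and it was 0.610 to 0.830. The exact permutation adjusted p was then 0.0357 to 0.0714, set by the smaller number of libraries and by the other pairs. The ratio no longer passed in 8 of these 10 tests. The ratio of Itga6 over Itga3 was 4.15 ± 0.46 in null and 3.85 ± 0.30 in flox, and these overlapped (exact permutation adjusted p = 0.491). Itgb4, the other partner of Itga6, stayed at 0.122 to 0.238 RPKM in null and 0.129 to 0.289 RPKM in flox at E9.5, under the level for testing. At E10.5 it was not tested either, at 0.281 to 0.582 RPKM in null and 0.127 to 0.263 RPKM in flox, with no overlap. These levels came from 31 to 65 reads per null library and 14 to 28 per flox library. Itgb4 shares 56 bp with Galk1, which was called higher in null at E10.5, at 77.1 RPKM against 35.9 RPKM in flox (limma adjusted p = 0.01). The part of Galk1 reads in the Itgb4 values was not tested.

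Itgb1, the common beta chain, was the most abundant member. It averaged 207 ± 11.4 RPKM in null and 194 ± 10.4 RPKM in flox at E9.5, and 194 ± 37.3 RPKM in null and 238 ± 39.8 RPKM in flox at E10.5, and passed the test at neither stage. It made up 86.6 ± 1.26% of all integrin beta RPKM in null and 87.1 ± 1.18% in flox at E9.5, and 84.2 ± 2.47% in null and 89.1 ± 2.16% in flox at E10.5. Itga6 made up 57.2 ± 4.6% of all integrin alpha RPKM in null and 49.1 ± 3.8% in flox at E9.5. At E10.5 its share was 47.7 ± 1.1% in null and 36.2 ± 3.56% in flox. These shares are given as a description, with no test.

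**Figure D2:**
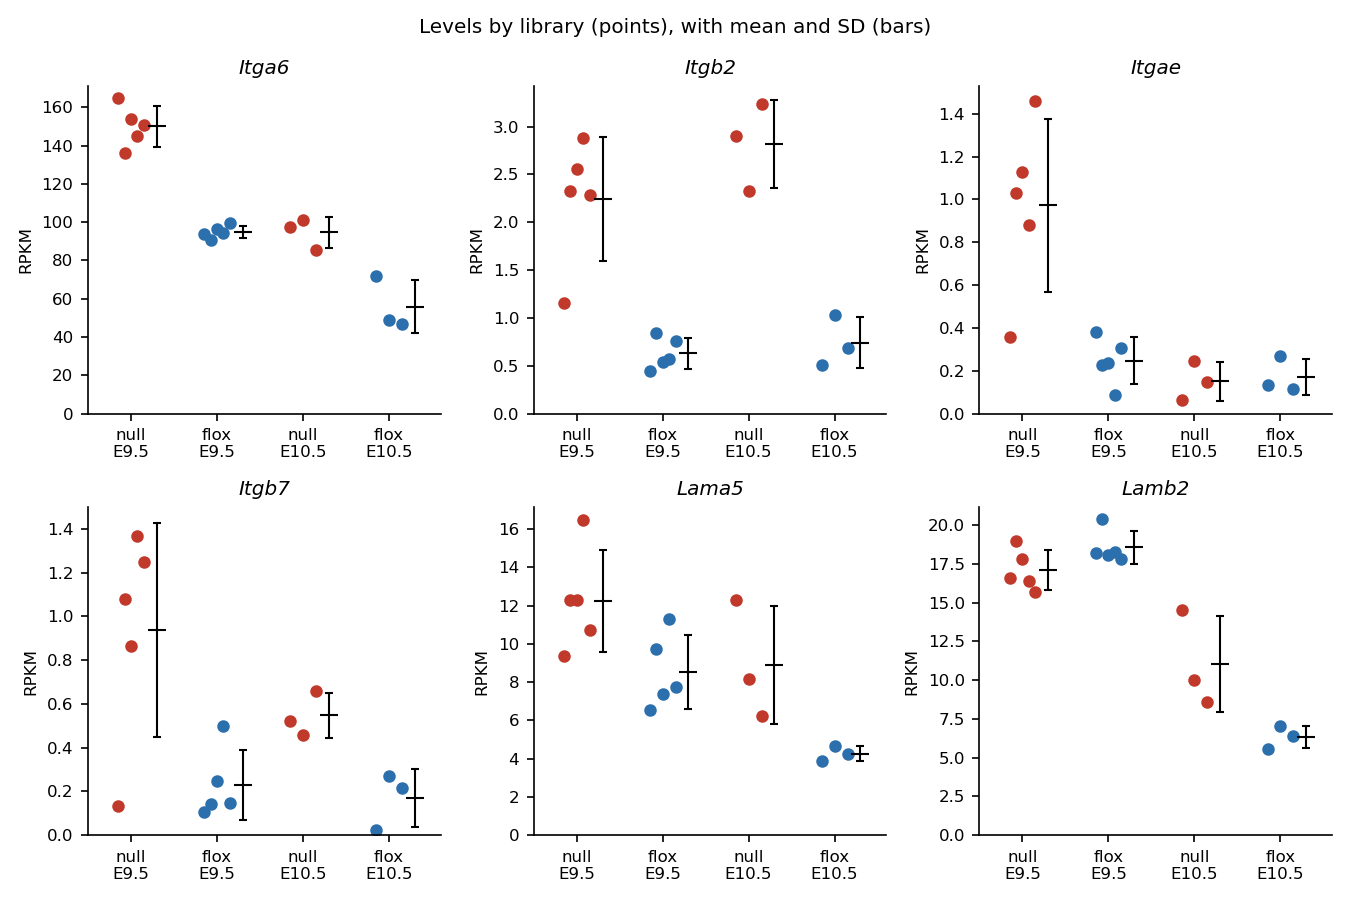
RPKM in each library (points) with the mean and SD (bars) for the 4 called integrins and for Lama5 and Lamb2, null left of flox at each stage, axes from 0. Itga6 and Itgb2 separate null from flox at both stages. Itgae and Itgb7 at E9.5 have 1 low null library, and Itgb7, Lama5 and Lamb2 separate at E10.5 alone.

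Itgb2, the beta chain shared by the leukocyte integrins, was the only member called at both stages, at a low level. It lies at chr10:77530329-77565708 (GRCm38.p6). At E9.5 it had 1.16, 2.33, 2.56, 2.88 and 2.29 RPKM in null hearts, against 0.442, 0.838, 0.536, 0.571 and 0.76 RPKM in flox hearts. At E10.5 it had 2.9, 2.33 and 3.24 RPKM in null hearts, against 0.508, 1.03 and 0.689 RPKM in flox hearts. Null and flox libraries did not overlap at either stage. The fitted fold was 2.38 (95% interval 1.79 to 3.17; limma adjusted p = 0.00168) at E9.5, from 65 to 153 reads per null library and 27 to 56 per flox library. At E10.5 it was 2.7 (1.86 to 3.9; adjusted p = 0.0247). The E10.5 call was lost without flox 1, flox 2, flox 3, null 2 or null 3, each left out alone (adjusted p 0.051 to 0.104).

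Itgae and Itgb7 code for the chains of a pair known from lymphocytes and mast cell precursors, and both were called at E9.5. Itgae (chr11:73090505-73147449) had 0.358, 1.03, 1.13, 0.883 and 1.46 RPKM in null hearts, against 0.379, 0.225, 0.235, 0.0868 and 0.307 RPKM in flox hearts. Null 1 lay within the flox range and the other 4 null libraries above it (fitted fold 1.92, 1.4 to 2.65; limma adjusted p = 0.0119). Itgb7 (chr15:102215994-102233405) had 0.134, 1.08, 0.863, 1.37 and 1.25 RPKM in null hearts, against 0.105, 0.144, 0.249, 0.5 and 0.145 RPKM in flox hearts. Here too null 1 was among the flox values (fitted fold 1.88, 1.23 to 2.89; limma adjusted p = 0.0469). Itgb7 lost its call in 7 of the 9 fits that left out 1 library and still tested it (flox 1, 2, 3 or 5, or null 2, 3 or 5; adjusted p up to 0.111). Both genes were under the level for testing at E10.5. At that stage Itgae averaged 0.15 ± 0.092 RPKM in null and 0.173 ± 0.0841 RPKM in flox. Itgb7 at E10.5 averaged 0.547 ± 0.104 RPKM in null and 0.17 ± 0.132 RPKM in flox, with no overlap. Haspin, the gene of a mitotic kinase (listed as Gsg2), lies inside Itgae with 2811 bp of overlap and had 7.26 RPKM in null and 6.76 RPKM in flox at E9.5. The counting may or may not have used strand, so reads of an overlapping gene cannot be told apart. Of the 37 members, 19 overlap another annotated gene.

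The alpha partners of Itgb2 were scarce. Itgal, the lymphocyte alpha chain, lay between 0.313 and 0.614 RPKM in null and between 0.108 and 0.353 RPKM in flox at E9.5, when it was not tested. At E10.5 it lay between 0.406 and 1.55 RPKM in null and between 0.514 and 0.877 RPKM in flox (adjusted p = 0.582). Itgam, the myeloid alpha chain, stayed at 0.0764 to 0.276 RPKM in null and 0.0207 to 0.153 RPKM in flox at E9.5. Itgax ranged from 0 to 0.228 RPKM in null and from 0 to 0.051 RPKM in flox, and Itgad from 0.155 to 0.266 RPKM in null and 0.238 to 0.379 RPKM in flox, both at E9.5. At E10.5 Itgam lay at 0.0945 to 0.341 RPKM in null and 0.0239 to 0.275 RPKM in flox, and Itgax and Itgad stayed under 0.5 RPKM in every library. The authors' deposited table at E9.5 lists Itgb2, Itgae, Itgb7, Itgal and Itgam, with log2 ratios of flox over null of -1.39, -1.16, -0.83, -0.80 and -0.60, all higher in null.

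Of 10 leukocyte and macrophage markers few passed the test, and null and flox libraries overlapped in the mean log2 level of the list at both stages. The median change of the tested markers was 0.85 (E9.5) and 0.96 (E10.5), beside -0.04 and -0.03 over all tested genes. At an unadjusted p under 0.05, 4 were higher and 1 lower in null at E9.5, and 4 higher and 0 lower at E10.5. Of all tested genes 32.4% (E9.5) and 22.9% (E10.5) reached that p. Over the 10 markers, the mean log2(RPKM + 0.5) was 0.14 to 1.28 in null and -0.07 to 0.66 in flox at E9.5, lowest in null 1 among the null libraries. At E10.5 it was 1.53 to 2.16 in null and 0.62 to 1.64 in flox. At E9.5, 7 of the 10 were tested, Laptm5, a lysosomal protein of blood cells, rose and Lyz2, the macrophage lysozyme, fell, at 2.48 ± 0.808 RPKM in null and 4.03 ± 0.683 RPKM in flox (limma adjusted p = 0.041). At E10.5 Laptm5 alone was called of the 8 tested. Of all tested genes 17.2% (E9.5) and 2.07% (E10.5) were called. Laptm5 averaged 7.07 ± 2.39 RPKM in null and 2.72 ± 0.432 RPKM in flox at E9.5 (limma adjusted p = 0.00341), and 11.7 ± 0.14 RPKM in null and 3.52 ± 1.35 RPKM in flox at E10.5 (adjusted p = 0.0171). The part of these cells in the integrin values was not tested. None of the 10 markers was at 0 in every library, and the summed level was 9.08 to 30.2 RPKM in null and 7.5 to 14.5 RPKM in flox at E9.5. At E10.5 the sum was 36.4 to 55 RPKM in null and 15.8 to 32.4 RPKM in flox, without overlap. In whole hearts, more cells of a type and more RNA per cell cannot be told apart.

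With the mean level of these markers as a covariate at E9.5, the log2 change of Itgb2 was 0.90 (limma adjusted p = 0.0143) and that of Itga6 was 0.73 (adjusted p = 0.000238). In the same fit Itgae had 0.75 (adjusted p = 0.131) and Itgb7 had 0.31 (adjusted p = 0.443), so both calls were lost. With the erythroid level as the covariate, Itgb2, Itgae and Itgb7 all lost their calls at E9.5 (adjusted p 0.239, 0.514 and 0.89). The log2 change of Itgb2 was then 1.04 (SE 0.32), against 1.25 (SE 0.187) without the covariate. For Itgae it was 0.74, against 0.94 without, and for Itgb7 0.29, against 0.91 without. At E10.5 Itgb2 lost its call under the leukocyte covariate (log2 change 1.14, adjusted p = 0.323) and the erythroid covariate (1.19, adjusted p = 0.117). The covariate levels themselves differed between null and flox hearts.

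**Figure D3:**
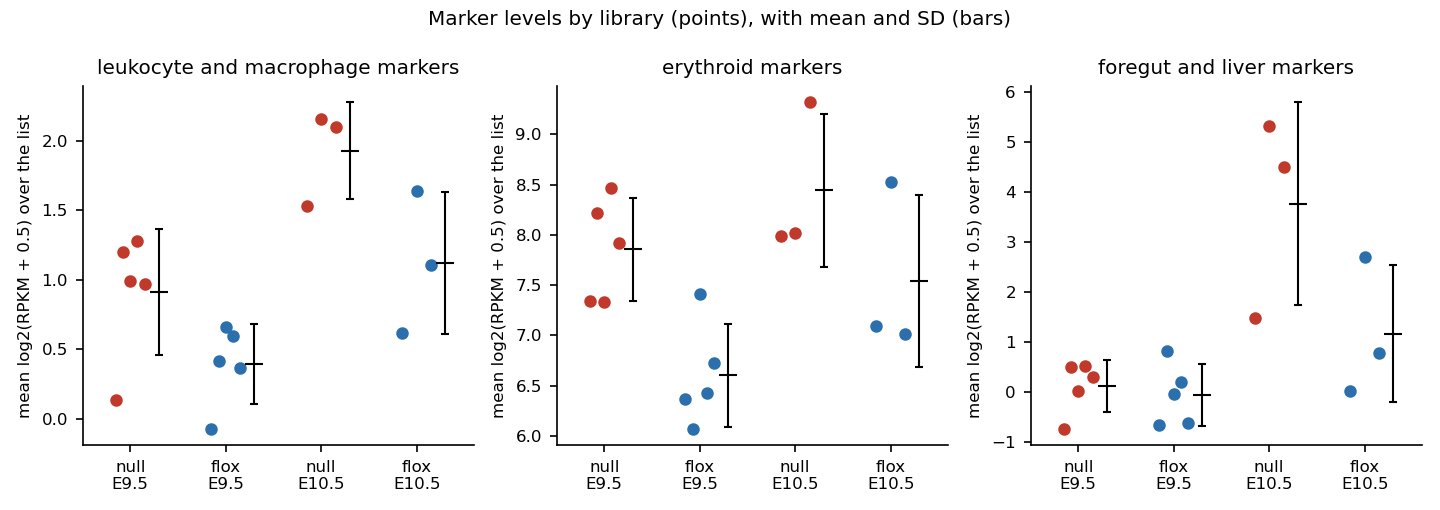
Mean log2(RPKM + 0.5) of the leukocyte and macrophage, erythroid, and foregut and liver marker lists in each library (points), with the mean and SD (bars), null left of flox at each stage. Leukocyte levels reach 1.28 in null against 0.66 in flox at E9.5, and the foregut list is highest in null 2 and null 3 at E10.5.

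The fibronectin and collagen receptors did not pass at either stage. Itga5, the alpha chain of the main fibronectin receptor, averaged 38.4 ± 3.14 RPKM in null and 36.6 ± 2.4 RPKM in flox at E9.5. At E10.5 it averaged 33.2 ± 5.54 RPKM in null and 25.6 ± 2.14 RPKM in flox, without overlap (limma adjusted p = 0.228). Itgav, the alpha chain of the vitronectin-type receptors, averaged 15.8 ± 2.26 RPKM in null and 14.4 ± 1.82 RPKM in flox at E9.5, and 14.9 ± 3 RPKM in null and 16.9 ± 2.37 RPKM in flox at E10.5. The log2 ratio of Itga5 over Itgav at E10.5 was 1.13 ± 0.14 in null and 0.59 ± 0.20 in flox, with no overlap. This ratio reached an exact permutation p of 0.1 (0.225 adjusted over 9 pairs), the smallest that 3 against 3 libraries allow. Of the 9 pairs, 2 passed at E9.5 and 0 could pass at E10.5. At E9.5 the same ratio was 1.26 ± 0.12 in null and 1.32 ± 0.11 in flox (exact permutation adjusted p = 0.491).

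Among the partners of Itgav, Itgb5 averaged 21 ± 3.07 RPKM in null and 15.2 ± 1.1 RPKM in flox at E10.5, without overlap (log2 change 0.44, interval 0.09 to 0.79, limma adjusted p = 0.152). At E9.5 Itgb5 averaged 15.3 ± 1.42 RPKM in null and 14.8 ± 2.02 RPKM in flox, and Itgb8 averaged 1.21 ± 0.318 RPKM in null and 1.4 ± 0.43 RPKM in flox. Itgb8, the chain of a receptor for latent TGF-beta, was the single tested member with all null libraries below all flox libraries at E10.5. It had 0.72, 1.29 and 0.677 RPKM in null, against 1.91, 2.04 and 1.38 RPKM in flox (log2 change -0.72, limma adjusted p = 0.149). Over all tested genes, 17.4% had every null library below every flox library at that stage. Itgb3, which pairs with Itgav and with the platelet chain Itga2b, averaged 12.3 ± 2.99 RPKM in null and 11.6 ± 2.08 RPKM in flox at E9.5, and 10 ± 0.914 RPKM in null and 10.4 ± 2.18 RPKM in flox at E10.5. Itga2b averaged 5.37 ± 1.91 RPKM in null and 4.57 ± 1.14 RPKM in flox at E9.5, and 7.09 ± 2.97 RPKM in null and 4.55 ± 1.1 RPKM in flox at E10.5. None of the 7 tested megakaryocyte and platelet markers was called at either stage.

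Itga4, the alpha chain that binds Vcam1 and fibronectin and is prominent in epicardium, varied widely among libraries of a group. It had 4.29, 16.5, 17.2, 14.3 and 17.4 RPKM in null hearts at E9.5, against 2.94, 14.8, 7.04, 11.2 and 16.9 RPKM in flox hearts. The low libraries were null 1, flox 1 and flox 3, in which the 8 epicardial markers summed to 152, 83.6 and 150 RPKM, against 194 to 454 RPKM in the other libraries of the stage. Itga8, a receptor chain for nephronectin, was low in the same libraries, at 0.777 RPKM in null 1 and 0.585 and 0.875 RPKM in flox 1 and flox 3, and between 1.79 and 2.7 RPKM in the others. The part of epicardial cells in these values was not tested. Without those 3 libraries Itga6, Itgb2, Itgae and Itgb7 were still called at E9.5 (adjusted p 0.00133 to 0.0141). At E10.5 Itga4 averaged 11.4 ± 2.36 RPKM in null and 13.8 ± 3.38 RPKM in flox, and Itga8 averaged 2.89 ± 0.78 RPKM in null and 3.59 ± 0.58 RPKM in flox. Of the rest, Itga9, a tenascin receptor chain, averaged 13.7 ± 2.29 RPKM in null and 13.7 ± 1.07 RPKM in flox at E9.5, and 11 ± 1.97 RPKM in null and 12.7 ± 0.328 RPKM in flox at E10.5.

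The collagen-receiving chains were led by Itga1, at 10.4 ± 1.79 RPKM in null and 8.45 ± 1.91 RPKM in flox at E9.5 and 11.6 ± 4.44 RPKM in null and 10.4 ± 2.81 RPKM in flox at E10.5. Itga2 averaged 0.486 ± 0.0916 RPKM in null and 0.552 ± 0.148 RPKM in flox at E9.5. It averaged 0.956 ± 0.408 RPKM in null and 0.973 ± 0.303 RPKM in flox at E10.5, and Itga10 averaged 0.909 ± 0.222 RPKM in null and 0.771 ± 0.116 RPKM in flox at E9.5. At E10.5 Itga10 averaged 0.649 ± 0.0593 RPKM in null and 0.408 ± 0.113 RPKM in flox, without overlap (log2 change 0.35, limma adjusted p = 0.388). Itga11 stayed under the level for testing, at 0.259 to 0.396 RPKM in null and 0.157 to 0.208 RPKM in flox at E9.5, where the groups did not overlap. The authors' deposited table lists it at that stage (log2 ratio of flox over null -0.63, their adjusted p = 0.0113). Itgb6, an epithelial chain, was at 0 to 0.0392 RPKM in null and 0.00836 to 0.0484 RPKM in flox at E9.5.

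**Figure D4:**
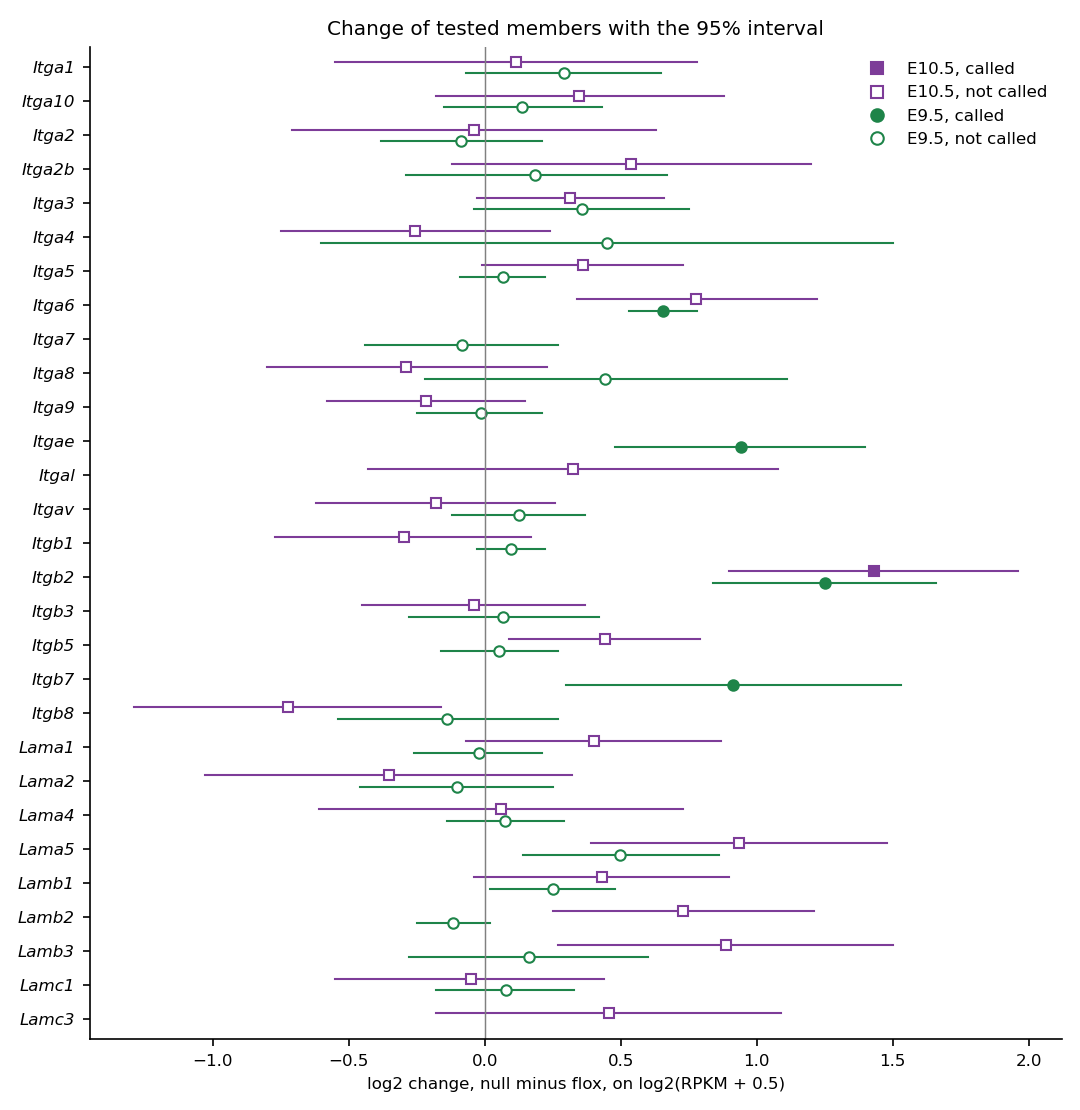
Change of the tested members, 1 left out, null minus flox on log2(RPKM + 0.5), with its 95% interval, E10.5 (squares) above E9.5 (circles); filled symbols passed the test. Filled symbols are Itga6, Itgae and Itgb7 at E9.5 and Itgb2 at both stages, all to the right of 0.

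No laminin gene passed the test at E9.5 (9 tested) or E10.5 (10 tested) in the limma fit described above. An unadjusted p under 0.05 was reached by 2 and 3 of them. Of all tested genes 17.2% and 2.07% were called at the 2 stages, and 32.4% and 22.9% had an unadjusted p under 0.05. In voom on the recovered reads, 1 laminin passed at E9.5, Lama5, and 0 at E10.5. Voom called 2391 of the 13643 genes tested at E9.5. With same-numbered libraries taken as blocks, Lama5 and Lamb1 passed at E9.5 (limma adjusted p 0.00256 and 0.0489), when 27.1% of all tested genes were called. The intervals were wide at E10.5. The median change of the tested laminins there was 0.42 on the log2 scale, beside -0.03 over all tested genes. Without null 1 of E10.5 it was 0.23, beside -0.02 over all tested genes, and the median of all members was 0.12. That library was the highest null library for Lama4, Lama5, Lamb1, Lamb2 and Lamc3. It also had the highest level of 10 hypoxia-responsive genes, a list chosen after seeing the data, at a mean log2(RPKM + 0.5) of 6.18, against 5.02 and 4.68 in the other null and 3.77 to 3.86 in the flox libraries. Its part in the laminin values was not tested beyond leaving it out. All 3 null libraries stood above all 3 flox libraries for 11 of 27 members at E10.5, or 40.7%, of which 5 were laminins, against 13.9% of all tested genes. Among the 11, Itga10 and Lamb3 averaged 0.408 and 0.393 RPKM in flox and reached the level for testing only through the null libraries. At E9.5 every null library stood above every flox library for 2 of 28 members, or 7.14%, both integrins, against 5.50% of all tested genes. No member had every null library below every flox library at E9.5, against 8.57% of all tested genes.

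Lama5 and Lama4 are the main laminin alpha chains here. Lama5, found under epithelia and endothelium, had 9.38, 12.3, 12.3, 16.5 and 10.7 RPKM in null hearts at E9.5, against 6.55, 9.72, 7.36, 11.3 and 7.73 RPKM in flox hearts. The groups overlapped, and the fold was 1.41 (1.1 to 1.82; limma adjusted p = 0.0602). At E10.5 Lama5 had 12.3, 8.16 and 6.23 RPKM in null hearts, against 3.87, 4.64 and 4.24 RPKM in flox hearts. These did not overlap, with a fold of 1.91 (1.31 to 2.79; limma adjusted p = 0.0862). The log2 change was 0.94, and 0.69 without null 1, the highest library. Lama5 is in the authors' deposited table for both stages, with log2 ratios of flox over null of -0.49 (E9.5) and -0.96 (E10.5). Lama4, of endothelial and muscle basement membranes, averaged 33.8 ± 2.79 RPKM in null and 32.2 ± 4.75 RPKM in flox at E9.5, and 29.3 ± 13.5 RPKM in null and 26.6 ± 5.21 RPKM in flox at E10.5.

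Lama5 made up 24.3 ± 3.6% of all laminin alpha RPKM in null and 19 ± 3.7% in flox at E9.5, and 20.9 ± 1.75% in null and 12.3 ± 2.37% in flox at E10.5. Lama4 made up 67.6 ± 3.12% in null and 71.8 ± 4.4% in flox at E9.5, and 67 ± 4.99% in null and 75.6 ± 4.49% in flox at E10.5. The log2 ratio of Lama4 over Lama5 was 1.45 ± 0.26 in null and 1.87 ± 0.33 in flox at E9.5 (exact permutation adjusted p = 0.143). At E10.5 it was 1.63 ± 0.22 in null and 2.50 ± 0.36 in flox, without overlap (exact permutation p = 0.1, 0.225 adjusted). Lama1, of early embryonic basement membranes, averaged 3.01 ± 0.399 RPKM in null and 2.18 ± 0.507 RPKM in flox at E10.5. Lama2, of muscle and nerve, averaged 1.37 ± 0.621 RPKM in null and 1.79 ± 0.322 RPKM in flox at that stage. At E9.5 Lama1 averaged 2.29 ± 0.303 RPKM in null and 2.34 ± 0.35 RPKM in flox, and Lama2 averaged 1.43 ± 0.314 RPKM in null and 1.58 ± 0.412 RPKM in flox.

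**Figure D5:**
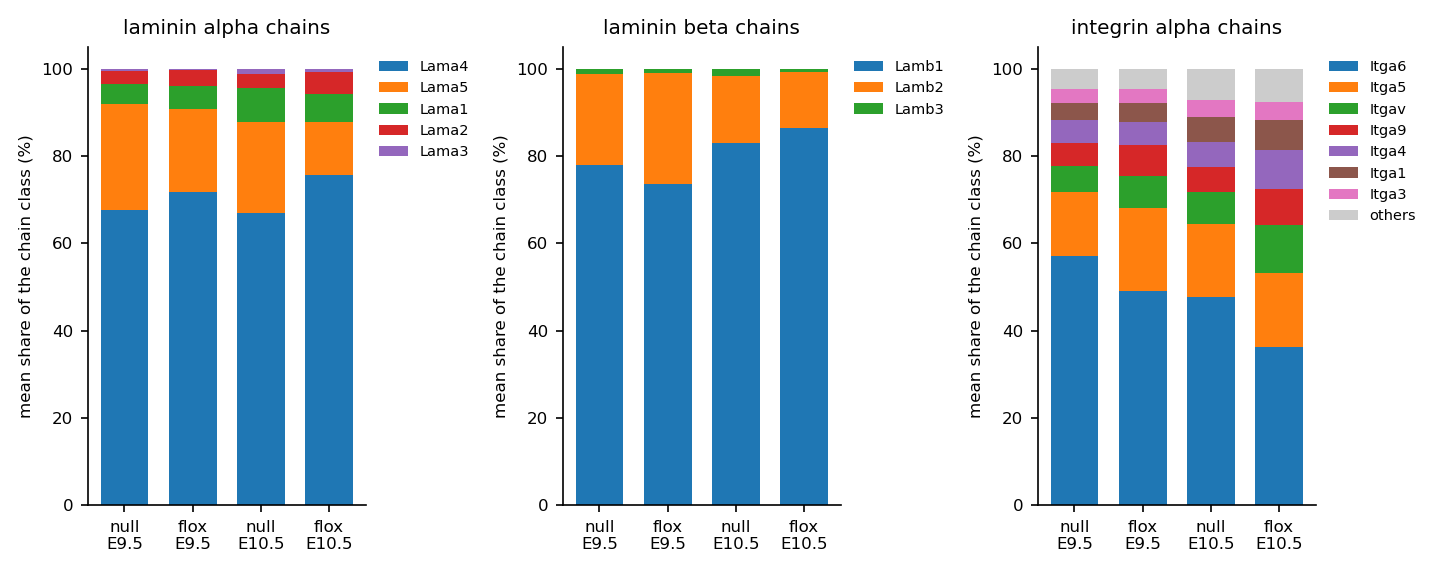
Mean share of each gene in the summed RPKM of its chain class (percent), for laminin alpha, laminin beta and integrin alpha chains, null left of flox at each stage. Lama5 takes 20.9% in null and 12.3% in flox at E10.5, and Itga6 takes 57.2% in null and 49.1% in flox at E9.5.

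Lamb2 was the only member called in the test of whether the change differed between the stages. It codes for a laminin beta chain of vessel walls, kidney and neuromuscular synapses. At E10.5 it had 14.5, 10 and 8.56 RPKM in null hearts, against 5.57, 7.03 and 6.38 RPKM in flox hearts, with no overlap. At E9.5 it had 16.6, 19, 17.8, 16.4 and 15.7 RPKM in null hearts, against 18.2, 20.4, 18.1, 18.3 and 17.8 RPKM in flox hearts, which overlapped. Its log2 change was 0.73 at E10.5 (interval 0.25 to 1.21; limma adjusted p = 0.113; 0.52 without null 1, the highest library) and -0.12 at E9.5 (-0.25 to 0.02; adjusted p = 0.231). The difference of the changes was 0.84 (interval 0.46 to 1.23; adjusted p = 0.03 for the interaction of genotype and stage), with 3.82% of all tested genes called in that test, 349 higher and 182 lower (394 and 385 after median scaling). An unadjusted p under 0.05 for the interaction was reached by 5 of the 27 members tested, against 26.2% of all genes.

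The Lamb2 call was lost without any 1 of flox 1, 2, 3 or 4 or null 3 or 5 of E9.5, or flox 1 or 2 of E10.5 (adjusted p 0.0511 to 0.0854), with a difference of 0.636 to 1.001 over all 16 such fits. It was also lost without null 1, flox 1 and flox 3 of E9.5 together (0.85, adjusted p = 0.119). The libraries of the stages were made from different amounts of RNA, 300 ng at E10.5 and 200 ng at E9.5, so stage and library input cannot be told apart. Foregut and liver markers were high in null 2, null 3 and flox 2 at E10.5, with a summed level of 29.8 to 1398 RPKM in null and 5.33 to 184 RPKM in flox over the 8 markers, none at 0 in every library. Without those 3 libraries the difference for Lamb2 was 1.33, but the E10.5 null group is then null 1 alone, the highest for Lamb2, assumed to vary like the other groups.

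Lamb1, the commonest beta chain here, averaged 64.3 ± 8.22 RPKM in null and 53.9 ± 6.7 RPKM in flox at E9.5, and 59.4 ± 16.9 RPKM in null and 43.1 ± 4.86 RPKM in flox at E10.5. The log2 ratio of Lamb2 over Lamb1 was -1.87 ± 0.21 in null and -1.51 ± 0.15 in flox at E9.5, without overlap (exact permutation p = 0.00794, 0.0357 adjusted). With 1 library left out the difference was -0.417 to -0.289. The exact permutation adjusted p was then 0.0357 to 0.0714, and the ratio no longer passed in 8 of these 10 tests. At E10.5 the ratio was -2.38 ± 0.10 in null and -2.67 ± 0.29 in flox, also without overlap and on the other side (exact permutation p = 0.1, 0.225 adjusted). Lamb2 made up 20.9 ± 2.43% of laminin beta RPKM in null and 25.5 ± 2.09% in flox at E9.5, and 15.4 ± 1.03% in null and 12.8% in flox (10.2 to 14.3%) at E10.5.

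Lamc1, the common gamma chain, averaged 63.5 ± 7.56 RPKM in null and 60.4 ± 9.33 RPKM in flox at E9.5, and 45 ± 10.2 RPKM in null and 46.3 ± 8.76 RPKM in flox at E10.5. The chains of the epithelial laminin were low. Lamb3 averaged 1.19 ± 0.435 RPKM in null and 0.393 ± 0.0684 RPKM in flox at E10.5, without overlap (fold 1.85, interval 1.21 to 2.83, limma adjusted p = 0.122). At E9.5 Lamb3 averaged 0.901 ± 0.331 RPKM in null and 0.746 ± 0.305 RPKM in flox. Lama3, its usual alpha partner, was not tested, at 0.211 to 0.702 RPKM in null and 0.189 to 0.26 RPKM in flox at E10.5. Krt19, an epithelial keratin counted among the epicardial markers, rose at E10.5, at 121 ± 48.1 RPKM in null and 23.6 ± 5.82 RPKM in flox (limma adjusted p = 0.01). The other 7 epicardial markers were not called, 1 of them lower in null at an unadjusted p under 0.05. The median change of the 8 markers was -0.04. The part of epithelial cells was not tested. Lamc3 averaged 1.12 ± 0.425 RPKM in null and 0.672 ± 0.24 RPKM in flox at E10.5. The authors' deposited table at E10.5 lists Lamb2 and Lamb3 with log2 ratios of flox over null of -0.75 and -1.18. It lists 5 of the 37 members in all, among 1357 genes, and their table at E9.5 lists 8, among 3094 genes. The expression tables hold 24509 genes.

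Genes that act with integrins and laminins were counted in 3 lists. Of their 59 genes 49 were tested at E9.5 and 8 were called, or 16.3%, beside 17.2% of all tested genes. At E10.5, 58 were tested and 1 was called, or 1.72%, beside 2.07% of all tested genes. Of 23 focal adhesion genes 22 were tested at E9.5, where 2 rose and 2 fell. Parva, which links integrins to actin, averaged 52.5 ± 2.71 RPKM in null and 42.7 ± 2.63 RPKM in flox (limma adjusted p = 0.00583), and the kinase gene Src averaged 13.6 ± 1.03 RPKM in null and 11 ± 1.22 RPKM in flox (adjusted p = 0.0314). Itgb1bp2, the muscle protein melusin that binds the Itgb1 tail, averaged 31.9 ± 6.57 RPKM in null and 46.9 ± 6.69 RPKM in flox (adjusted p = 0.0251). Tln2, the talin of striated muscle, averaged 6.44 ± 1.04 RPKM in null and 8.31 ± 0.869 RPKM in flox (adjusted p = 0.0492). Beside these 2 that fell, 2 of the 8 heart muscle markers, Actc1 and Myh6, were also called lower in null at E9.5. The other 6 were not called, with log2 changes from -0.37 (Tnni1) to 0.09 (Myh7). The median change of the 8 markers was -0.28, with 4 lower and 0 higher in null at an unadjusted p under 0.05. The part of muscle cells was not tested. At E10.5 all 23 focal adhesion genes were tested and 0 were called in limma, with 6 at an unadjusted p under 0.05. The list's median change was 0.06 (E9.5) and 0.11 (E10.5), beside -0.04 and -0.03 over all tested genes.

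Of 14 basement membrane partners, 12 were tested at E9.5 and 1 rose, Agrn, the proteoglycan agrin that binds laminin and dystroglycan. Agrn averaged 43.9 ± 2.96 RPKM in null and 33.7 ± 2.19 RPKM in flox (limma adjusted p = 0.00289). At E10.5, 14 were tested and 0 called in limma, with 2 at an unadjusted p under 0.05. The median was 0.03 (E9.5) and 0.20 (E10.5), beside -0.04 and -0.03 over all tested genes. Of 22 other integrin ligands, 15 were tested at E9.5, 2 rose and 1 fell. Npnt, the ligand nephronectin of Itga8, averaged 16.1 ± 2.6 RPKM in null and 12 ± 1.24 RPKM in flox (adjusted p = 0.0299). Edil3, an endothelial ligand of Itgav receptors, averaged 9.06 ± 1.38 RPKM in null and 6.94 ± 0.75 RPKM in flox (adjusted p = 0.0396). Vcam1, the ligand of Itga4, averaged 32.6 ± 2.5 RPKM in null and 43.8 ± 5 RPKM in flox (adjusted p = 0.00669). At E10.5, 21 ligands were tested and Mfge8, a ligand of Itgav receptors, rose, at 95 ± 22.2 RPKM in null and 41.4 ± 8.45 RPKM in flox (adjusted p = 0.035). The median was 0.25 (E9.5) and 0.27 (E10.5), beside the same -0.04 and -0.03. At E10.5, 5 of the 21 ligands were higher and 0 lower in null at an unadjusted p under 0.05. The ligands Fga, Fgb, Fgg and Vtn, plasma proteins made in liver, were picked after their values were seen. They were tested at E10.5 alone, with log2 changes of 2.29, 3.15, 2.62 and 2.83, none of them called (limma adjusted p 0.209 to 0.288). The foregut and liver markers stood high in 2 of the 3 null libraries of that stage, and their part in these values was not tested.

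CHD4 peaks were counted where all 3 lists held an overlapping peak (at least 1 bp), which left 22824 of 84271, 60749 and 50232 peaks. A shared peak lay within 5 kb of an annotated gene end for 17 of the 37 members and for 14 of the 30 tested at either stage, against 65.0% of all tested genes. Of the genes called at E9.5, Itga6, Itgb2 and Itgb7 had none within the gene or 5 kb of it, and Itgae had 1 inside the gene. Lamb2 had 4, among them 1 of 400 bp over its start and 1 of 684 bp over its end. Lama5 had 3, none of them over its start. Peaks were made from wild-type hearts, and no null hearts were assayed, so nothing about a change in binding was measured.

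Of the 37 members 23 had a promoter window in the RefSeq table (GRCm38.p6), and 2 of those windows, of Lamb2 and Itga10, held a shared peak, against 21.8% of all 32851 windows. The 250 bases before the window's start site of Lamb2 and Lama5 are shown because both had shared peaks nearby. Lamb2 was also called for the stage difference, and Lama5 had the smallest limma adjusted p of the laminins at each stage. As annotated for the peak counts, the genes begin at chr9:108479847 (Lamb2) and chr2:180225904 (Lama5). The last bases shown therefore lie within those annotated genes. Capitals mark bases covered by peaks of at least 2 of the 3 lists. Lamb2 (chr9:108479612-108479861, plus strand) had 141 such bases and Lama5 (chr2:180225860-180226109, minus strand) had 108, though no peak of all 3 lists.
Lamb2: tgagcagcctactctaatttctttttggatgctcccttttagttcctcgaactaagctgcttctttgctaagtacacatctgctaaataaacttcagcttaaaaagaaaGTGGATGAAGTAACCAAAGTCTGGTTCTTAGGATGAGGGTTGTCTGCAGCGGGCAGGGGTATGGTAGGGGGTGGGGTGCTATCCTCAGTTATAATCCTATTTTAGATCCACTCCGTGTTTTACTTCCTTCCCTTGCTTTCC
Lama5: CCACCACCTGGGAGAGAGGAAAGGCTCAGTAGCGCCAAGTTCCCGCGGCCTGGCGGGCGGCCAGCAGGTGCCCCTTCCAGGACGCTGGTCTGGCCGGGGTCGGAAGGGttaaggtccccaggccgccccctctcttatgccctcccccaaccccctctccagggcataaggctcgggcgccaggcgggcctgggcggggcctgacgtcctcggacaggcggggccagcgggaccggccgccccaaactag
The Lamb2 stretch had 43.6% G or C and 3 CpG sites, and the Lama5 stretch had 72.4% and 19 CpG sites.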

How the data were processed

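RPKM values and gene lengths were used as the authors deposited them. HTSeq 0.6.2, Bowtie 1.2.0, MACS2, bedtools 2.25.0, DESeq2 1.6.3, SAMtools 1.6 and the build mm10 are named in the submitters' processing notes. Multiplied by length, 100% of the RPKM values came within 0.01 of a whole read, so depth is known; it covers counting error only. The log2 ratios and adjusted p-values the authors deposited are of flox over null and list only genes at 0.05 or under. The peak score the authors deposited was used only to rank peaks within a list. Headers reading WT and KO were matched to flox and null by stage and replicate number.

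Tests used limma 3.58.1 in R 4.3.3 (eBayes with a trend, two-sided) on log2(RPKM + 0.5), per stage, over genes of mean at least 0.5 RPKM, with Benjamini-Hochberg adjustment over all genes. The stage difference was the interaction over all 16 libraries. Ratios of 9 gene pairs used exact permutation. Scripts were tested on simulated data. Other steps ran in Python 3.11.15 with pandas 2.3.3, numpy 2.4.6, scipy 1.17.1, matplotlib 3.10.9 and bedtools 2.31.1. The design text calls the RNA libraries biological replicates, and none agreed within sampling noise, so none was merged.

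Members called at either stage are given library by library, other members by group means or, when low, ranges, and each pathway list by up to 4 called genes. Chd4, Lama5, Lamb2, Lamb1, Itga4, Itga8, Itga11, Itgb8, Haspin and Galk1 were given in more detail after their values were seen. So were the markers Krt19, Laptm5, Lyz2, Actc1, Myh6, Myh7 and Tnni1 and the ligands Fga, Fgb, Fgg and Vtn. The members and lists were chosen with earlier results of these data known. The alternatives are given in the closing section; the leukocyte and foregut covariates, leaving out 3 libraries of E10.5 and the gene-body window were chosen after seeing the data. The values of 1 member, which is in the counts, are not reported here. The 2 input libraries were not analysed here.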

Additional observations from a re-analysis of the deposited data

Results flagged for a closer look

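Among 56 groups of 5 libraries tested at E9.5, 4 held a library far from the others by Dixon's ratio of gap to range, and chance flags about 1 in 20. Itga2 was low in null 1 at 0.327 RPKM, against 0.49 to 0.552 RPKM in the other null libraries (ratio 0.725). Itga4 was low in null 1 at 4.29 RPKM, against 14.3 to 17.4 RPKM (ratio 0.765). Lamb2 was high in flox 2 at 20.4 RPKM, against 17.8 to 18.3 RPKM in the other flox libraries (ratio 0.813). Lamb3 was high in flox 4 at 1.28 RPKM, against 0.529 to 0.639 RPKM (ratio 0.854). The change of Lamb2 at E10.5 exceeded that at E9.5 by 0.84 on the log2 scale in the interaction test.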

How the results depend on the processing

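At E9.5, 4 members and 2342 genes were called. Genes called numbered 3549 with arrayWeights, 3698 with a replicate block, 92 with the erythroid, 1100 with the Xist and 710 with the leukocyte covariate, 1349 without flox 1, flox 3 and null 1, and 1537 to 2773 with 1 library left out. Members called numbered 2 at a mean of at least 1 RPKM, 7 with the block (adding Itga3, Lama5 and Lamb1, adjusted p for the last 2 of them 0.00256 and 0.0489), when 27.1% of all genes were called, 1 with the erythroid, 2 with the Xist and 2 with the leukocyte covariate, and 3 to 6 with 1 library left out. Itga6 kept its call in all of these, Itgb2 in all but the erythroid fit. Itgae also lost its call under the Xist covariate (log2 change 0.79, against 0.94 without it; adjusted p = 0.0553). Itgb7 lost it with a pseudocount of 0.1 (0.0616), no filter (0.0614), voom (0.093) and the epicardial (0.113) and Xist (0.177) covariates.

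At E10.5, 1 member and 292 genes were called. Genes called numbered 162 with no filter, 1426 with arrayWeights, 75 with the erythroid, 104 with the Xist, 30 with the leukocyte and 156 with the foregut covariate, 541 without flox 2, null 2 and null 3, and 62 to 356 with 1 library left out. Members called numbered 4 with arrayWeights, 2 without those 3 libraries (Lama5 and Lamb2, where the null group is null 1 alone, the highest for both, assumed to vary like the other groups), 0 with no filter or with the erythroid, Xist, leukocyte or foregut covariate, and 0 to 1 with 1 library left out.

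For the stage difference, 1 member and 531 genes were called. Genes called numbered 860 with quantile normalization, 301 with arrayWeights, 826 with the erythroid and 256 with the epicardial covariate, 18 without flox 1, flox 3 and null 1 of E9.5, 810 without null 1 of E10.5, 1627 without flox 2, null 2 and null 3 of E10.5, and 4 to 1795 with 1 library left out. Members called numbered 0 without the 3 libraries of E9.5 and 0 to 1 with 1 library left out. Pairs past the threshold at E9.5 numbered 0 to 4 with 1 library left out, where the smallest p that 4 against 5 libraries allow is larger. Members near a shared peak numbered 17 (65.0% of all tested genes), and 7 under the stricter overlap of each peak's length (34% of all tested genes). They numbered 29, 28 and 26 in each list alone (89%, 82.6% and 75.7%), 6 within 1 kb (54%), 30 within 50 kb (86.5%), 12 in the upper part of each list by score (56.4%) and 23 with the gene body (70.3%). The causes were not tested. Same-numbered null and flox libraries correlated at 0.451, 0.0417, -0.136, 0.519 and 0.258 (E9.5, libraries 1 to 5) and at -0.0299 to 0.106 (E10.5). The labels name no pairing and the values differed from number to number, so the main fits did not take the numbers as pairs. Some E9.5 libraries of the same number did deviate together, and the replicate block gives the result with them paired. Over members and settings the sign of a change turned in 52 of 720 comparisons at E9.5, 33 of 638 at E10.5 and 54 of 937 for the stage difference. Among members with an unadjusted p under 0.1 this was 1 case, Itga2b at E10.5 (0.54, and -0.05 with the leukocyte covariate). Depth limits the genes near 0.5 RPKM, such as Itgb7 with 7 to 68 reads in null and 6 to 27 in flox at E9.5.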
